A study of Mus musculus with 20 samples.

Results

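The glutathione transferases (Gst) and the UDP-glucuronosyltransferases (Ugt) were followed across kidney cortex libraries of HFD-fed mice. Members were the protein-coding genes whose symbol began with Gst plus a class letter (a, k, m, o, p, t or z) and a number, or with Ugt plus a number. They came to 43 of the 43430 genes counted, of which 22 were Gst and 21 were Ugt genes. A further Ugt symbol of the annotation, Ugt2a1, matched none of the genes counted and so is not among the members.

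All mice were male C3H/HeJ animals, 10 weeks old when a HFD was started. They carried either WT Slc5a2 or the Sweet Pee (SP) mutation, a homozygous missense change in Slc5a2, the gene of the glucose cotransporter SGLT2. Placebo (DMSO) or MAT2Ai was given after 8 weeks of the diet, for 8 more weeks. MAT2Ai, an inhibitor of the S-adenosylmethionine synthetase MAT2A, was injected intraperitoneally at 10 mg/kg, 3 times a week. The 4 groups (WT placebo, WT MAT2Ai, SP placebo and SP MAT2Ai) held 5 libraries each, every group was fed HFD, and the SP mutation is carried by every cell of the animal.

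Both families are conjugating enzymes. Glutathione transferases join the tripeptide glutathione to electrophiles, and the products are trimmed outside and inside the tubule cell to mercapturates that leave in urine. UDP-glucuronosyltransferases are membrane enzymes of the endoplasmic reticulum that move a sugar, mostly glucuronic acid from UDP-glucuronate, onto steroids, bilirubin, phenols and drugs. In the kidney the proximal tubule is the main site of both reactions.

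Gene counts per library ranged from 53296824 to 79339949, and Gst and Ugt genes took 0.120% to 0.155% and 0.268% to 0.569% of them. Levels are given as CPM, counts per 1000000 gene counts after TMM scaling. Slc5a2, the mutated gene, lay at 229 to 518 CPM in the 10 WT libraries and at 40.2 to 85.9 CPM in 8 of the 10 SP libraries. In the libraries labelled SP placebo 1 and SP placebo 2 it lay at 241 and 282 CPM. That is within the WT range, whose lowest value is from a WT MAT2Ai library, but below every WT placebo library (371 to 518 CPM). These 2 libraries are therefore called by their labels here, and results are also given without them. Mat2a lay at 265 to 525 CPM. The library WT MAT2Ai 2 stood apart, with Havcr1 and Lcn2, genes of injured tubules, at 1214 and 676 CPM against at most 74.4 and 19.4 CPM in the other 19. It also had the lowest sum of 7 proximal tubule markers, 6078 CPM against 8499 to 11199 CPM elsewhere. Of 4 liver genes, Ttr ranged from 168 to 712 CPM, Alb from 8.33 to 24.8, Apoa1 from 0.0870 to 5.70 and Cps1 from 0 to 0.104 CPM. On the first principal component of all genes WT MAT2Ai 2, 3 and 4 lay at 89.7, 21.8 and 19.4, against at most 6.0 in the others, and some values are given without these 3 for that reason.

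Several members are near copies of each other, which bears on every value that follows. Reads that aligned to more than 1 place were left out of the gene counts, so a member with a close copy was counted only where the copies differ. The coding sequence of Ugt2b38 (chr5:87409942-87424203, minus strand, mm10) shared 97.0% of its bases with Ugt2b5 and 94.1% with Ugt2b37, and 29.0% of its 100-base windows occurred unchanged in a transcript of another gene. For Gsta2 (chr9:78331018-78355788, minus strand) and Gsta1 (chr9:78230656-78242684, plus strand) the identity was 97.6%. Such windows made up 37.6% of the coding sequence of Gsta2 and 86.1% of that of Gsta1, shared with each other and with the predicted genes Gm10639 and Gm3776. The 90-base coding stretches that differ most are shown to make the point, with capitals where a base differs from the first sequence of the set. In the alpha class pair, coding bases 421 to 510, 5 bases differed.
Gsta2: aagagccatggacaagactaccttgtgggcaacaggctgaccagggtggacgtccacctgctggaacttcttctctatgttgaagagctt
Gsta1: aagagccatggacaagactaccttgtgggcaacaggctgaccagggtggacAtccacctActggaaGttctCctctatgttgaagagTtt

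In the Ugt2b set, coding bases 1417 to 1506, Ugt2b37 differed from Ugt2b38 at 12 bases and Ugt2b5 at 9.
Ugt2b38: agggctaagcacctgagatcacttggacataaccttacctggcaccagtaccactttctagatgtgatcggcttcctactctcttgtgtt
Ugt2b37: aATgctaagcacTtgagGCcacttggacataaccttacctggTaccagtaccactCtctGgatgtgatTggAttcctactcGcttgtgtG
Ugt2b5: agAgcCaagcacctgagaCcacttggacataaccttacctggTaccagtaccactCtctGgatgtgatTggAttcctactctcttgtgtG

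Other pairs with shared stretches were Gstp1 and Gstp2, at 98.1% coding identity, and Ugt3a1 and Ugt3a2, at 93.2%. Gsta3, Gsta4, Gstm4, Gstm5, Gstm7, Gsto1, Gstz1 and Ugt8a had no 50-base window in common with another gene. The 9 Ugt1a genes lie at 1 locus on chromosome 1 and join separate first exons to common later exons, so reads in the common exons fit all of them. Of the 1915 exonic bases that only Ugt1a7c holds in the annotation, 917 lie before the first shared exon and 998 lie past the annotated 3′ end of the other Ugt1a genes. Its count therefore may hold reads of any Ugt1a transcript that runs on to that end.

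Of the 43 members, 34 passed the filter on low counts, 20 Gst and 14 Ugt genes. The 9 others never exceeded a few reads in any library. Their largest counts in a library were 4 for Gstm3, 8 for Gstt4, 1 for Ugt1a5, 3 for Ugt1a8, 4 for Ugt1a9, 2 for Ugt2a2, 2 for Ugt2b1, 1 for Ugt2b35 and 6 for Ugt2b36. All 4 alpha, 2 omega and 3 pi class Gst genes were among those that passed, as were 6 of 7 mu and 3 of 4 theta class genes and the single kappa and zeta class genes. Among Ugt genes, 6 of 9 Ugt1a, 5 of 9 Ugt2, both Ugt3a genes and Ugt8a passed.

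Levels of different genes were compared per kb of exon that belongs to the gene alone. The Ugt family was dominated by Ugt2b38, an enzyme of the steroid-conjugating UGT2B group, with a mean over the 20 libraries of 1198 CPM per kb, or 57.6% of the family sum. Ugt3a2, whose human counterpart uses sugars other than glucuronic acid, followed at 456 CPM per kb, then Ugt2b37 at 176 and Ugt1a7c at 141 CPM per kb. Ugt2b38 was above Ugt3a2, and Ugt3a2 above Ugt2b37, in 20 of 20 libraries, whereas Ugt2b37 was above Ugt1a7c in 16. Ugt1a1, the bilirubin-conjugating enzyme, was at 1.06 CPM per kb.

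Among Gst genes the levels were spread more evenly. Gstm1, a mu class transferase, led with 210 CPM per kb and 30.7% of the family sum. Gstm5 followed at 113 CPM per kb. Gstz1, the maleylacetoacetate isomerase of tyrosine breakdown, was at 89.8 CPM per kb and Gstt1 at 75.2. Gstm1 exceeded Gstm5 in 20 of 20 libraries, and Gstm5 exceeded Gstz1 in 19. The 4 alpha class genes, Gsta1 to Gsta4, lay at 2.26, 19.9, 9.29 and 9.51 CPM per kb.

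**Figure D1:**
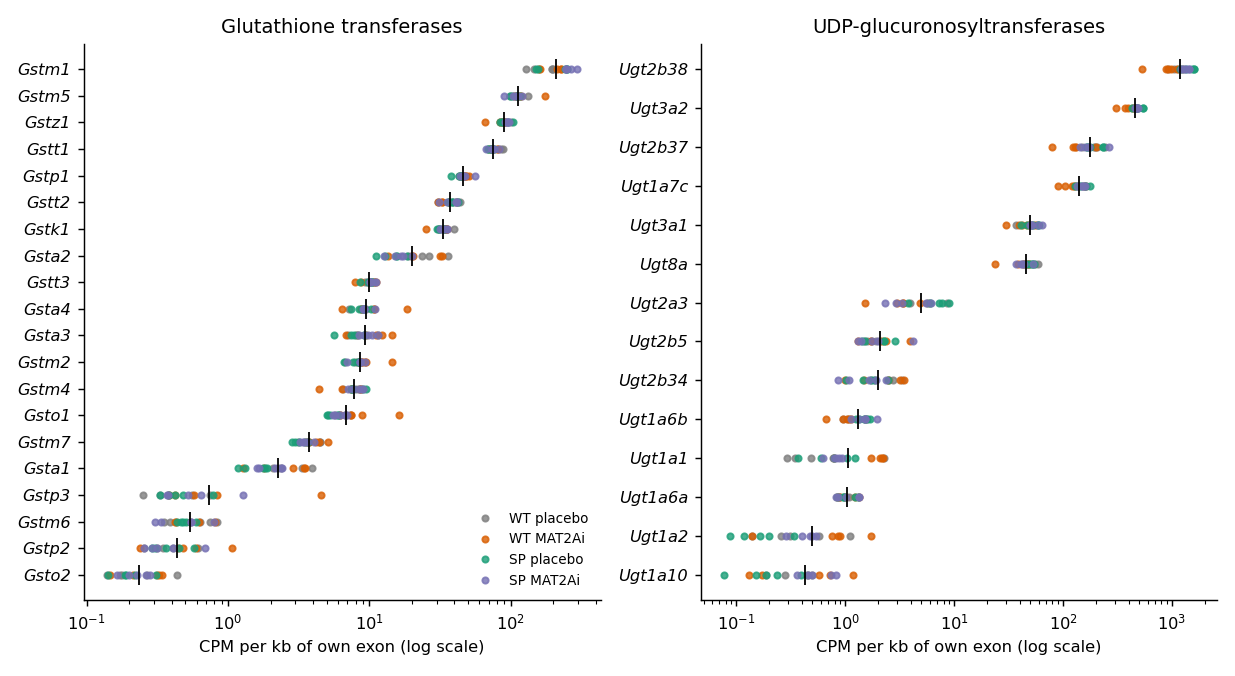
Level of each of the 34 members that passed the filter, in CPM per kb of own exon on a log axis, with 1 point for each of the 20 libraries colored by group and a vertical bar at the mean. Ugt2b38 lay highest with a mean of 1198 and Gsto2 lowest with 0.236, and the orange points are the WT MAT2Ai libraries.

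The summed level of each family was then set side by side for the 4 groups, without a test. For the Ugt genes the sum was 2038 ± 133 CPM per kb in WT placebo (SD, n = 5), 1627 ± 319 in WT MAT2Ai, 2404 ± 214 in SP placebo and 2254 ± 105 in SP MAT2Ai. The 5 WT MAT2Ai libraries ran from 1072 to 1880 and lay below every library of the other groups, the lowest of which was at 1894. Without WT MAT2Ai 2 the mean of the other 4 was 1766 ± 87.4. Leaving Ugt2b38 out gave 915 ± 47.1, 741 ± 114, 958 ± 86.5 and 916 ± 41.3 in the same order of groups. The sum of the proximal tubule markers was lowest in WT MAT2Ai too, with medians of 10302 CPM in WT placebo, 8973 in WT MAT2Ai, 10751 in SP placebo and 10189 in SP MAT2Ai. Its part in the Ugt values was not tested, and in bulk tissue fewer cells of a type and less RNA per cell cannot be told apart.

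For the Gst genes the sums were 654 ± 63.4 CPM per kb in WT placebo, 689 ± 47.6 in WT MAT2Ai, 662 ± 63.7 in SP placebo and 731 ± 12.5 in SP MAT2Ai, and all 4 groups overlapped. Without Gstm1 the means were 481 ± 42.5, 491 ± 18.8, 453 ± 25.7 and 471 ± 14.6.

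**Figure D2:**
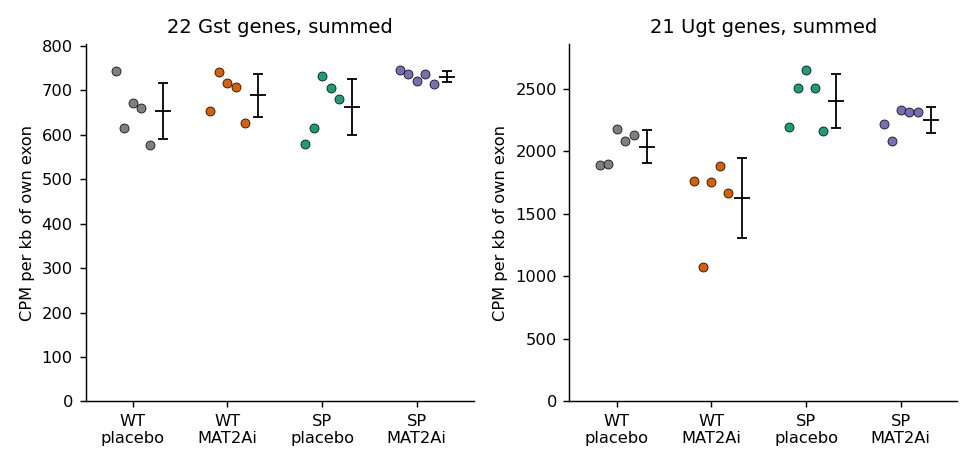
Summed level of all 22 Gst genes (left) and all 21 Ugt genes (right) in CPM per kb of own exon, 1 point per library, with the group mean and SD beside the points. The WT MAT2Ai libraries lie lowest for Ugt, from 1072 to 1880, and the groups overlap for Gst.

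The effect of the genotype was examined first. Averaged over both treatments, 2 of the 34 members passed an adjusted p of 0.05 between SP and WT in the edgeR quasi-likelihood test, Ugt2b38 upward and Gsta2 downward, where 1.33% of all 16152 tested genes did (0.607% higher and 0.724% lower). The unadjusted p was under 0.05 for 12 members, against 19.6% of all genes. The signs were 15 positive and 19 negative, with a median log2 fold change of 0.13 over the Ugt genes, -0.14 over the Gst genes and -0.01 over all genes.

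Ugt2b38 was at 1729, 1981, 2411, 2173 and 2320 CPM in WT placebo and at 1856, 1008, 1759, 2104 and 1654 CPM in WT MAT2Ai. In SP placebo it was at 2563, 3014, 2986, 2869 and 2238 CPM, and in SP MAT2Ai at 2445, 2276, 2719, 2522 and 2690 CPM. Every SP MAT2Ai library stood above every WT MAT2Ai library, while under placebo the lowest SP library lay below the 2 highest WT libraries. The log2 fold change of SP against WT was 0.48 ± 0.10 (SE, edgeR adjusted p = 0.0308). Within MAT2Ai-treated mice it was 0.59 ± 0.14 (adjusted p = 0.0432), and within placebo mice 0.36 ± 0.14 (adjusted p = 0.99997).

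Ugt2b38 was the only member past the threshold in SP MAT2Ai against WT MAT2Ai, where 1.84% of all genes passed (0.644% higher and 1.2% lower). At an unadjusted p under 0.05 there were 13 members, against 21.8% of all genes. In the same comparison 1 of 7 proximal tubule markers was called higher, Slc22a6 (0.55, adjusted p = 0.0266). Of the 7 values 6 were positive, and 2 had an unadjusted p under 0.05. Of 7 endothelial and immune markers 1 was called lower, the macrophage marker Cd68 (-1.20, adjusted p = 0.0464). None of these 7 values was positive, and 5 had an unadjusted p under 0.05. The call on Slc22a6 ended without SP MAT2Ai 1, 2, 3 or 5, and that on Cd68 stood only without WT placebo 2, WT MAT2Ai 1, 4 or 5, SP placebo 4 or SP MAT2Ai 4. Without WT MAT2Ai 2, 3 and 4 both ended, at 0.37 (adjusted p = 0.0931) for Slc22a6 and -0.68 (adjusted p = 0.217) for Cd68. Cd68 was at 6.45 CPM in WT MAT2Ai 2 and at 1.92 to 2.09 CPM in the other WT MAT2Ai libraries, and its value without WT MAT2Ai 2 was -0.67 (adjusted p = 0.0788). The summed endothelial and immune markers ran from 41.9 to 63.5 CPM in WT MAT2Ai and from 26.7 to 38.9 CPM in SP MAT2Ai. Their part in the Ugt2b38 values was not tested.

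The calls on Ugt2b38 did not stand in every fit. The averaged call ended without any 1 of WT placebo 2 or 4, the library labelled SP placebo 2, SP placebo 3 or 4, or SP MAT2Ai 3 or 5 (adjusted p 0.0503 to 0.0747), with log2 fold changes of 0.46 to 0.49. Within MAT2Ai-treated mice it ended without any 1 of 11 libraries, namely WT placebo 3, 4 or 5, WT MAT2Ai 3, those labelled SP placebo 1, 2 or 3, and SP MAT2Ai 1, 2, 3 or 5 (adjusted p 0.0515 to 0.117, log2 fold changes 0.57 to 0.63). Over all 20 fits without 1 library, the log2 fold change ran from 0.41 to 0.53 averaged and from 0.46 to 0.69 within MAT2Ai-treated mice. Without both libraries labelled SP placebo 1 and 2, the averaged value was 0.47 (adjusted p = 0.0520) and the value within MAT2Ai-treated mice 0.60 (adjusted p = 0.0599). Without WT MAT2Ai 2, 3 and 4 the latter was 0.53 (adjusted p = 0.0593). Within MAT2Ai-treated mice the call also ended with the compared groups only, where 2 of all genes were called, and with the replicate number as a block. Over the 10 alternatives other than leaving out 1 library, that call stood in 6 (log2 fold changes 0.52 to 0.61). The adjusted p of each alternative's own test reached 0.208. The averaged call stood in 8 of 9 such alternatives.

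Ugt2b37, a close copy of Ugt2b38 on the same chromosome, was at 459, 370, 363, 386 and 283 CPM in WT placebo and at 312, 333, 440, 440 and 317 CPM in SP placebo. MAT2Ai libraries had 250, 149, 243, 232 and 383 CPM in WT and 330, 299, 323, 499 and 269 CPM in SP. The groups overlapped throughout, and SP against WT averaged 0.22 ± 0.14 (adjusted p = 0.411). No test compared the responses of Ugt2b38 and Ugt2b37 with each other.

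Ugt3a2 was at 1439, 1333, 1413, 1476 and 1462 CPM in WT placebo, 1216, 950, 1416, 1366 and 1146 in WT MAT2Ai, 1330, 1461, 1688, 1525 and 1698 in SP placebo, and 1483, 1482, 1443, 1424 and 1514 in SP MAT2Ai. Its MAT2Ai-treated SP and WT libraries did not overlap, with a log2 fold change of 0.27 ± 0.09 (adjusted p = 0.0946). Ugt1a6b, a phenol-conjugating enzyme, was at 0.888 to 1.06 CPM in 4 of the WT MAT2Ai libraries and 0.621 CPM in WT MAT2Ai 2. The SP MAT2Ai libraries held 1.84, 1.05, 1.25, 1.41 and 1.43 CPM, overlapping at the low end (0.61 ± 0.19, adjusted p = 0.0809). Under placebo it was at 1.44, 0.893, 0.986, 1.48 and 1.44 CPM in WT and 1.18, 1.48, 1.41, 1.25 and 1.57 CPM in SP.

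Gsta2, an alpha class transferase of the kind that also reduces lipid peroxides, was lower in SP. WT placebo libraries held 42.3, 23.2, 31.1, 27.8 and 22.2 CPM and WT MAT2Ai libraries 38.2, 36.9, 23.4, 16.1 and 24.1 CPM. SP placebo libraries held 18.3, 18.5, 21.9, 15.2 and 13.2 CPM and SP MAT2Ai libraries 15.0, 17.8, 20.2, 23.5 and 19.8 CPM. All SP placebo libraries were below all WT placebo libraries, whereas under MAT2Ai the ranges overlapped. The averaged log2 fold change was -0.64 ± 0.15 (edgeR adjusted p = 0.0416).

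The call on Gsta2 ended in 13 of 20 fits that left out 1 library, WT placebo 1, 2, 3 or 4, WT MAT2Ai 1, the library labelled SP placebo 2, SP placebo 3, 4 or 5, or SP MAT2Ai 1, 2, 3 or 5. The log2 fold change stayed between -0.68 and -0.56 in those fits and the adjusted p between 0.0541 and 0.0921. Without both libraries labelled SP placebo 1 and 2 it was -0.67 (adjusted p = 0.0660).

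Gsta1, the closest copy of Gsta2 among the members, was counted at a lower level, with most of its coding sequence shared. It was at 3.77, 2.14, 3.20, 2.26 and 2.00 CPM in WT placebo and at 1.69, 1.75, 1.80, 1.27 and 1.13 CPM in SP placebo. MAT2Ai-treated WT libraries held 3.32, 3.35, 2.75, 1.23 and 1.72 CPM, and SP libraries 1.59, 1.53, 2.05, 2.31 and 2.27 CPM. Again the placebo groups did not overlap and the MAT2Ai groups did. The averaged value was -0.58 ± 0.18 (adjusted p = 0.0953).

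In SP placebo against WT placebo, Gsta1 and Gsta2 were the 2 members whose libraries did not overlap, both lower, against 1.19% of all genes (0.656% higher and 0.539% lower). Neither passed the test there (-0.81 ± 0.25 and -0.75 ± 0.21, both adjusted p = 0.99997). In that comparison 0 of 34 members passed in the edgeR quasi-likelihood test, as did 0.0% of all genes, and 0 passed by DESeq2, the likelihood ratio test and limma-voom, which called 7, 7 and 4 of all genes. The unadjusted p was under 0.05 for 5 members, against 3.75% of all genes. Gm10639, a predicted gene outside the rule, picked after its values were seen, that shares 100-base stretches with both, had mean levels of 6.55 and 4.33 CPM in WT and SP placebo and an averaged value of -0.69 ± 0.20 (adjusted p = 0.0746). The other alpha class genes, Gsta3 and Gsta4, which share no 50-base window with these, had averaged values of -0.14 ± 0.12 and -0.09 ± 0.13.

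**Figure D3:**
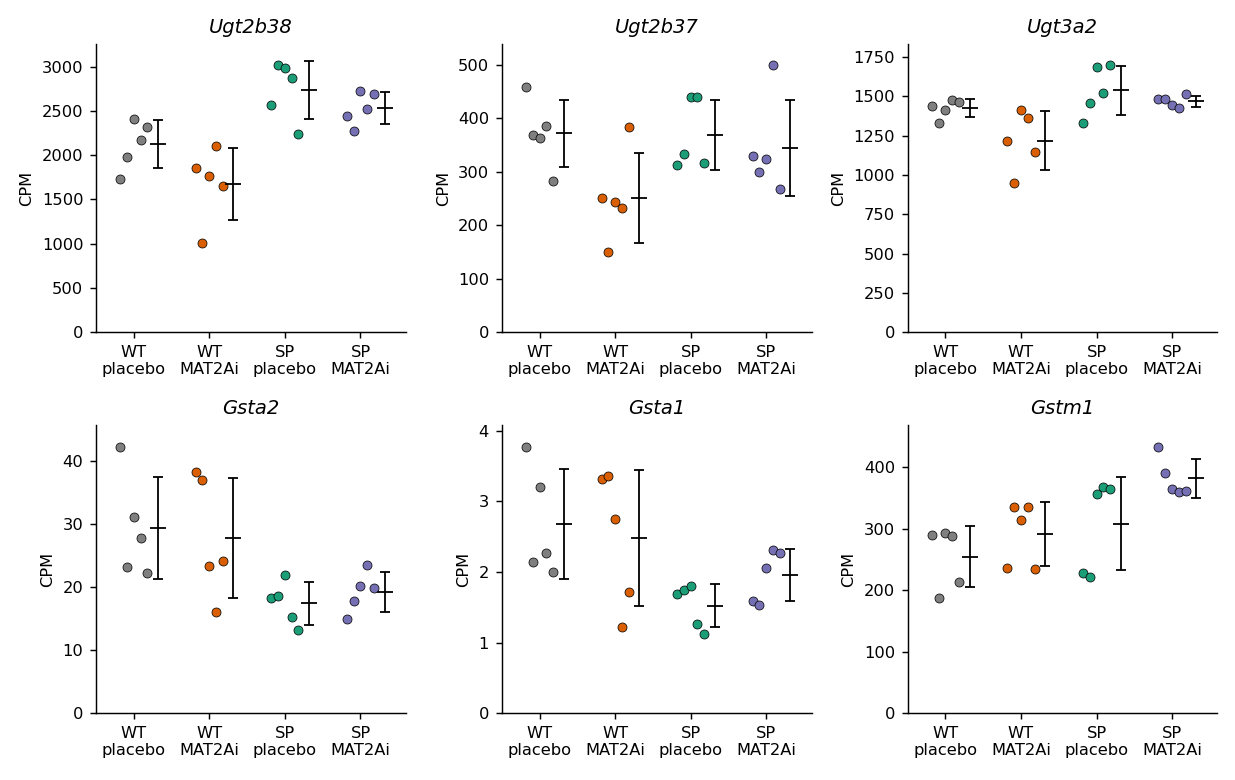
CPM of 6 members in each library, with the group mean and SD beside the 5 points of a group and every vertical axis starting at 0. SP MAT2Ai lies above WT MAT2Ai for Ugt2b38, Ugt3a2 and Gstm1, SP placebo lies below WT placebo for Gsta2 and Gsta1, and the first 2 SP placebo points of Gstm1 (229 and 222) are the libraries labelled SP placebo 1 and 2.

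Gstm1 was high in the SP libraries with low Slc5a2. WT placebo libraries held 290, 188, 293, 288 and 214 CPM and WT MAT2Ai libraries 236, 335, 314, 335 and 234 CPM. SP MAT2Ai libraries held 433, 391, 364, 360 and 361 CPM, above every WT library. SP placebo 3, 4 and 5 held 357, 368 and 365 CPM, while those that carry the labels SP placebo 1 and 2 were at 229 and 222 CPM, inside the WT range. The averaged SP against WT value was 0.33 ± 0.11 (adjusted p = 0.117) with all libraries and 0.45 (adjusted p = 0.0351) without those 2, whose removal takes out the lowest SP values.

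In SP MAT2Ai against WT MAT2Ai, 4 members were higher in every SP library, namely Gstm1, Gstz1, Ugt2b38 and Ugt3a2, against 1.71% of all genes, and none was lower in every SP library, against 1.68% (3.4% in either direction). Gstz1 was at 398, 304, 415, 419 and 385 CPM in WT MAT2Ai and at 451, 420, 438, 437 and 441 CPM in SP MAT2Ai. The gap between the nearest libraries was thus 419 to 420 CPM, and the log2 fold change was 0.19 ± 0.08 (adjusted p = 0.183). Placebo libraries of Gstz1 held 466, 419, 407, 404 and 385 CPM in WT and 388, 405, 479, 443 and 399 CPM in SP.

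Gsto1, an omega class enzyme with thioltransferase and dehydroascorbate reductase activity, was highest in the library with tubular injury. It was at 14.9, 32.9, 17.9, 12.6 and 15.1 CPM in WT MAT2Ai, the second being WT MAT2Ai 2, and at 13.5, 11.1, 14.0, 12.6 and 11.6 CPM in SP MAT2Ai. Placebo libraries held 14.7, 12.5, 13.9, 13.5 and 11.6 CPM in WT and 10.2, 10.7, 12.2, 10.3 and 12.1 CPM in SP. SP against WT was -0.42 ± 0.13 (adjusted p = 0.0895) with all libraries, -0.26 (adjusted p = 0.0456) without WT MAT2Ai 2, and -0.47 (adjusted p = 0.0373) without WT MAT2Ai 4. Gstp3, a pi class gene picked after its values were seen, was at 4.13 CPM in WT MAT2Ai 2 and at 0.226 to 1.17 CPM in the other 19. Gstm5 was also highest there, at 193 CPM against 117 to 129 CPM in the other WT MAT2Ai libraries.

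The next question was what MAT2Ai did within each genotype. No member passed the threshold in either case. In WT mice 0 of 34 were called in the edgeR quasi-likelihood test, as were 0.0% of all genes, and 0 by DESeq2, the likelihood ratio test and limma-voom, which called 201, 178 and 2 of all genes. At an unadjusted p under 0.05 there were 11 members, against 15.7% of all genes. No member separated the 2 groups without overlap, against 2.19% of all genes (1.52% higher and 0.662% lower). Of 14 Ugt genes 9 had a negative value, with a median log2 fold change of -0.21 against 0.01 over all genes. In SP mice 0 of 34 were called in the edgeR quasi-likelihood test, against 0.0186% of all genes, and 0 by DESeq2, the likelihood ratio test and limma-voom, which called 27, 20 and 17 of all genes, with 4 members at an unadjusted p under 0.05 against 5.92% of all genes. Again none separated the groups, against 1.58% of all genes (1.06% higher and 0.52% lower). The Ugt median was 0.00 there, and 16 of 20 Gst values were positive with a median of 0.10.

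Averaged over genotypes, 0 of 34 members passed in the edgeR quasi-likelihood test, against 0.223% of all genes (0.186% higher and 0.0371% lower), and 13 had an unadjusted p under 0.05, against 14.7%. DESeq2 and the edgeR likelihood ratio test each called 1, Ugt2a3, and limma-voom none, where these tools called 187, 155 and 70 of all genes. Ugt2a3, a bile acid and steroid-conjugating enzyme, was at 12.3, 11.9, 8.26, 12.8 and 18.2 CPM in WT placebo and 7.16, 3.23, 6.28, 10.3 and 7.15 CPM in WT MAT2Ai. SP placebo libraries held 16.3, 19.1, 15.3, 8.03 and 12.8 CPM and SP MAT2Ai libraries 13.0, 6.24, 4.95, 11.8 and 7.01 CPM. Group means were lower with MAT2Ai in both genotypes while single libraries overlapped. The log2 fold change was -0.82 ± 0.21 (adjusted p = 0.121), with -0.90 ± 0.30 in WT and -0.74 ± 0.30 in SP.

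Ugt2b37 had a value of -0.57 ± 0.20 for MAT2Ai in WT (adjusted p = 0.218), from the libraries given above, and of -0.10 ± 0.20 in SP. Without WT MAT2Ai 2, 3 and 4, the 3 lowest of their group for Ugt2b37, the WT value was -0.24 (adjusted p = 0.772). Ugt8a, the ceramide galactosyltransferase of glycolipid synthesis, was at 200, 213, 250, 222 and 270 CPM in WT placebo and 219, 107, 210, 196 and 175 CPM in WT MAT2Ai. In SP it was at 248, 233, 207, 235 and 219 CPM with placebo and 240, 167, 200, 188 and 192 CPM with MAT2Ai. The lowest value was again WT MAT2Ai 2, and the averaged value was -0.28 ± 0.10 (adjusted p = 0.245). Ugt1a7c was at 311, 246, 261, 259 and 313 CPM in WT placebo, 297, 171, 232, 200 and 241 in WT MAT2Ai, 244, 308, 342, 267 and 278 in SP placebo, and 298, 259, 286, 289 and 304 in SP MAT2Ai. Its value for MAT2Ai was -0.28 ± 0.12 in WT and -0.003 ± 0.12 in SP, and the groups overlapped.

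Ugt1a10 was at 0.152, 0.402, 0.226, 0.366 and 0.359 CPM in WT placebo and 0.468, 0.963, 0.590, 0.107 and 0.139 CPM in WT MAT2Ai. SP placebo libraries held 0.122, 0.152, 0.0625, 0.189 and 0.320 CPM and SP MAT2Ai libraries 0.293, 0.365, 0.400, 0.669 and 0.593 CPM. In SP the groups overlapped by 1 placebo library, and the log2 fold change was 1.44 ± 0.51 (adjusted p = 0.816). Gstp1, the main pi class enzyme, was at 58.3, 67.7, 68.5, 69.5 and 66.5 CPM in SP placebo and at 86.2, 70.7, 71.5, 68.1 and 73.3 CPM in SP MAT2Ai (0.16 ± 0.06, adjusted p = 0.833). In WT it was at 72.4, 69.1, 71.2, 71.1 and 66.1 CPM with placebo and 75.3, 74.9, 72.8, 78.9 and 68.2 CPM with MAT2Ai.

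**Figure D4:**
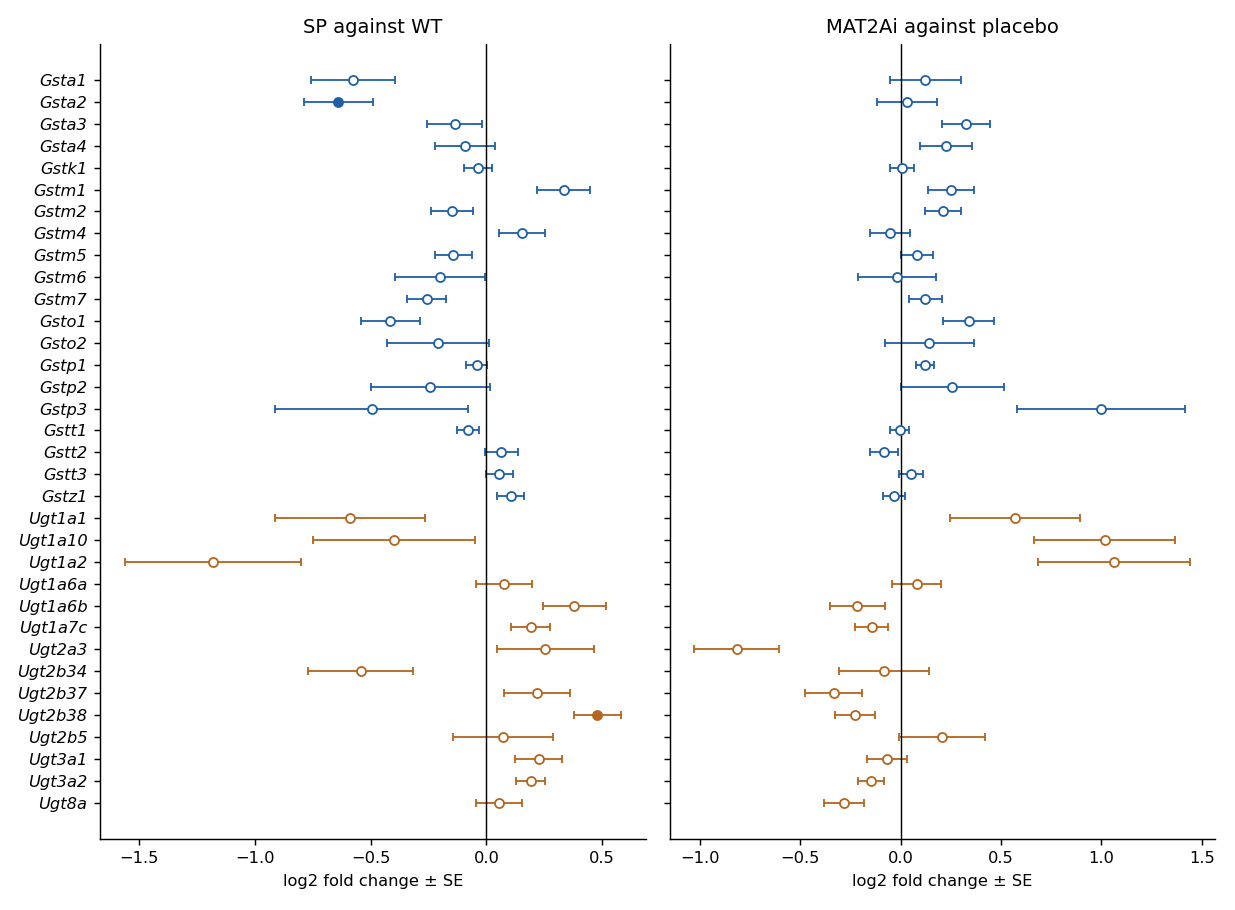
Log2 fold change with its SE for each of the 34 tested members, SP against WT averaged over treatments (left) and MAT2Ai against placebo averaged over genotypes (right), Gst in blue and Ugt in brown. Filled points passed an adjusted p of 0.05, which only Ugt2b38 (0.48) and Gsta2 (-0.64) did, both on the left.

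Whether the response to MAT2Ai differed between genotypes was tested as an interaction. None of the 34 members passed (edgeR quasi-likelihood test, DESeq2, likelihood ratio test and limma-voom all 0, with 0, 1, 1 and 0 of all genes), none had an unadjusted p under 0.05, against 5.59% of all genes, and 0.0% of all genes passed. The member with the smallest p was Ugt1a1, at 0.872, 0.298, 0.113, 0.133 and 0.188 CPM in WT placebo and 0.808, 0.839, 0.849, 0.302 and 0.661 CPM in WT MAT2Ai. SP libraries held 0.231, 0.396, 0.141, 0.306 and 0.473 CPM with placebo and 0.358, 0.307, 0.317, 0.334 and 0.243 CPM with MAT2Ai. WT placebo 1 and all WT MAT2Ai libraries but the fourth were above every SP library, and the interaction was -1.12 ± 0.65 (adjusted p = 0.842). It was -1.90 (adjusted p = 0.932) without WT placebo 1 and between -1.31 and -0.89 without any other library. For Ugt2b38 it was 0.23 ± 0.20 and for Gsta2 0.22 ± 0.30, so their SP against WT values under placebo and under MAT2Ai were not shown to differ.

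The genes around the 2 families were read from lists. Of 9 genes listed for the mercapturate pathway, 3 were called higher in SP than in WT averaged over treatments and none was called lower. They were Kyat1, a cysteine conjugate beta-lyase (0.40 ± 0.08, adjusted p = 0.0212), Cndp2, a dipeptidase (0.42 ± 0.09, adjusted p = 0.0364), and Anpep, the brush border aminopeptidase N (0.31 ± 0.07, adjusted p = 0.0416). Over all genes 0.607% were called higher and 0.724% lower. Of the 9 list values 7 were positive, with a median of 0.24 against -0.01 over all genes. An unadjusted p under 0.05 was found for 6 of the 9, against 19.6% of all genes. In SP MAT2Ai against WT MAT2Ai the same 3 were called, at 0.44, 0.54 and 0.47, where 0.644% of all genes were called higher. There the calls on Kyat1 and Cndp2 ended without any 1 of WT placebo 3 or 4, WT MAT2Ai 2 or 3, the libraries labelled SP placebo 1 or 2, SP placebo 3, or SP MAT2Ai 1, 2, 3 or 5, and that on Anpep without SP MAT2Ai 1, 2, 3 or 5. Without both libraries labelled SP placebo 1 and 2 the adjusted p of Kyat1 and Cndp2 was 0.0605 and 0.0617 there, and the averaged call on Cndp2 ended as well (0.43, adjusted p = 0.0572). Without WT MAT2Ai 2, 3 and 4 all 3 calls within MAT2Ai-treated mice ended. Kyat1, Cndp2 and Anpep were then at 0.52, 0.43 and 0.40 (edgeR adjusted p 0.0748, 0.274 and 0.103). The averaged call on Cndp2 also ended in that setting (0.36, adjusted p = 0.0838). Those on Kyat1 and Anpep stood (adjusted p 0.0136 and 0.0461). When 1 library was left out, the averaged call on Kyat1 ended only without SP placebo 4 (0.35 to 0.44 over the 20 fits). The call on Cndp2 stood in 9 fits, those without WT placebo 3 or 5, WT MAT2Ai 1, 2, 4 or 5, the library labelled SP placebo 1, SP placebo 5 or SP MAT2Ai 4 (0.37 to 0.47). That on Anpep stood in 6, those without WT MAT2Ai 1, 2, 4 or 5, the library labelled SP placebo 1 or SP MAT2Ai 4 (0.27 to 0.35). The proximal tubule list had 1 of 7 genes called higher in SP averaged over treatments. All 7 of its values were positive, with a median of 0.17 against -0.01 over all genes. An unadjusted p under 0.05 was found for 3 of them, against 19.6% of all genes. The part of this list in the mercapturate values was not tested.

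Among 13 tested regulators of conjugating enzymes, 1 was called, Nr1i2, which encodes the xenobiotic receptor PXR. It was lower in SP averaged over treatments at -0.87 ± 0.19 (adjusted p = 0.0348), where 0.724% of all genes were called lower. The call ended without any 1 of WT placebo 2 or 4, the library labelled SP placebo 2, SP placebo 3 or 4, or SP MAT2Ai 1, 2, 3 or 5, and the values ran from -0.94 to -0.70. The NRF2 gene Nfe2l2 had 0.20 for MAT2Ai against placebo and was not called. Of 14 tested NRF2 targets outside the families, 1 was called, Ephx1, the microsomal epoxide hydrolase. It was higher with MAT2Ai averaged over genotypes at 0.63 ± 0.09 (adjusted p = 0.0048), where 0.186% of all genes were called higher. That call stood in 20 of 20 fits without 1 library, from 0.56 to 0.67, and ended without both libraries labelled SP placebo 1 and 2 (0.61, adjusted p = 0.0558). Of the 14 NRF2 target values in that comparison 11 were positive, with a median of 0.20 against 0.01 over all genes. An unadjusted p under 0.05 was found for 6 of them, against 14.7% of all genes. Of 11 tested genes of glutathione synthesis and recycling, 9 of the UDP-glucuronate list and 9 membrane or other glutathione transferases, none passed in any of the 7 comparisons.

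Of 8 carriers that export conjugates, 1 was called lower in SP MAT2Ai than in WT MAT2Ai, where 1.2% of all genes were. It was Abcc3, a basolateral exporter of glucuronides (-1.67 ± 0.41, adjusted p = 0.0441). All 8 carriers had an unadjusted p under 0.05, against 21.8% of all genes. Of their values 2 were positive, and the median was -0.54 against -0.02 over all genes. Of 9 tested sulfotransferases and N-acetyltransferases, 1 was called lower in the same comparison, Sult2b1, a cholesterol sulfotransferase (-1.81 ± 0.43, adjusted p = 0.0424). The call on Abcc3 stood only without WT MAT2Ai 1, 4 or 5, SP placebo 4 or 5, or SP MAT2Ai 4, and that on Sult2b1 only without WT placebo 1 or 2, WT MAT2Ai 1, 4 or 5, the library labelled SP placebo 1, or SP placebo 4 or 5. Without WT MAT2Ai 2, 3 and 4 these became -0.41 (adjusted p = 0.701) and -0.87 (adjusted p = 0.474), and without the libraries labelled SP placebo 1 and 2 the adjusted p was 0.0625 and 0.0502. The injured tubule list, high in WT MAT2Ai 2, had 2 of 4 genes called lower in the same comparison, and none of the 4 values was positive. The called genes were Lcn2 (-5.90) and Krt20 (-4.95), which without that library were at -1.59 (adjusted p = 0.173) and -1.52 (adjusted p = 0.286). The part of this list in the Abcc3 and Sult2b1 values was not tested.

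Promoters were read from RefSeq (GRCm38.p6) as 300 bases, 250 before and 50 after the start, and 39 of 43 members had an entry, 47 promoters in all. Letters of 3 motifs were searched on both strands. The core of the antioxidant response element, TGACNNNGC, was in 3 of 47 (6.38%, against 12.4% of 32851 promoters), those of Gsta3, Gstm5 and Gstm7. The xenobiotic response element core, GCGTG, was in 10 (21.3% against 32.4%). The AP-1 letters TGANTCA were in 9 (19.1% against 7.81%), 6 of them in the 19 Ugt promoters, Ugt2b38 and Ugt2b37 included. A match is only a match of letters. The 250 bases before the start are shown for the 2 copies of each pair whose levels were compared above, with the matched letters in capitals. Those of Ugt2b38 (chr5:87424204-87424453, minus strand) and Ugt2b37 (chr5:87254789-87255038, minus strand) were 89.6% identical, and both hold the AP-1 letters.
Ugt2b38: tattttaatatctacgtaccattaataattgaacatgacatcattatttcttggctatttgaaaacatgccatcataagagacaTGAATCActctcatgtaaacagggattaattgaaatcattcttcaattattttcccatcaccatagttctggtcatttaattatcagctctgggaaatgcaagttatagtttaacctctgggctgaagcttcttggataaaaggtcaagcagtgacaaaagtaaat
Ugt2b37: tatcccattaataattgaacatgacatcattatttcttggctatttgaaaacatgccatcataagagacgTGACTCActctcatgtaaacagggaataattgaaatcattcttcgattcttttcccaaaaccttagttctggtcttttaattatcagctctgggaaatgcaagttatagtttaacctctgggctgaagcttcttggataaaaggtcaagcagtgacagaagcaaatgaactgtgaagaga

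Those of Gsta2 (chr9:78347146-78347395, minus strand) and Gsta1 (chr9:78230419-78230668, plus strand) were 73.6% identical. These RefSeq starts differ from those of the annotation used for gene positions. There Gsta2 begins at base 78355788, so its stretch lies inside the annotated gene. The Gsta1 stretch ends past the annotated start at base 78230656. GCGTG lies within the letters shown for Gsta2, and in Gsta1 it spans the start, so that it is in the 300 bases searched but not in the 250 shown.
Gsta2: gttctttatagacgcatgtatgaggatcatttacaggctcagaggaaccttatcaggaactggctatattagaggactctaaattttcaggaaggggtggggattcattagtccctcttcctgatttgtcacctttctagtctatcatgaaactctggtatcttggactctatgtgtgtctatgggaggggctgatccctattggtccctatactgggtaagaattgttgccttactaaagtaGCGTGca
Gsta1: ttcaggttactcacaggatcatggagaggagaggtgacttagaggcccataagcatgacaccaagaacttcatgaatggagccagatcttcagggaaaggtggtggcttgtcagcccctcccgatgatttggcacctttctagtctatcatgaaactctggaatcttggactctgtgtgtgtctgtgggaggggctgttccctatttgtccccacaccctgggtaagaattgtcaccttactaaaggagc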

How the data were processed

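The labels give the molecule as total RNA but also speak of nuclei isolated from cortex, and the libraries were taken here as bulk RNA of the tissue, as the study's methods describe. By those methods the authors extracted total RNA from kidney cortex, selected poly(A) RNA, made directional libraries and, after trimming, used STAR (mm10) and htseq with an Ensembl annotation. The deposited values are raw counts per gene, without scaling, and whether counting used strand is not given in the sources used here. Files end in 5 summary lines, not used as genes, with 0.702% to 0.794% of uniquely aligned reads ambiguous and 48.3 to 63.6 multiply mapped alignments per 100 gene counts. Symbols, positions and exon lengths came from GENCODE M21 (42546 of 43430 genes matched).

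Genes were filtered with filterByExpr (16152 kept) and scaled by TMM, and edgeR 4.0.16 (R 4.3.3) fitted 1 coefficient per group to all 20 libraries, with quasi-likelihood tests for 7 comparisons. P values were adjusted by Benjamini-Hochberg over all tested genes, with 0.05 as threshold, and the SE is the log2 fold change over the square root of F. The script was tested on simulated data. DESeq2 1.42.0, limma 3.58.1 and other settings served as alternatives. The labels number 5 samples per group without saying that each is a separate mouse, so p values measure the spread between these samples, which may be technical. Replicate numbers did not pair the libraries.

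Members and lists were chosen with earlier results of these data known. Named members were, in each comparison, those past the threshold and the 3 smallest p, plus the 3 Gst and 3 Ugt genes with the highest level per kb. Of each list, genes past the threshold were named. Nfe2l2 was named as well although it was not past it, and Havcr1 and the 4 liver genes were named for their levels. Other marker lists checked were 8 genes of other nephron segments, with summed levels of 2107 to 3874 CPM, 7 endothelial and immune genes (26.7 to 68.0 CPM) and 4 hepatocyte genes (179 to 738 CPM).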

Additional observations from a re-analysis of the deposited data

Results flagged for a closer look

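Of 72 groups of 5 libraries examined for 16 members and the 2 family sums, 7 held a library whose distance to its nearest neighbor was more than 0.71 of the whole range of the group. Chance alone flags about 1 in 20 groups.

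In WT MAT2Ai 2, the library with high injury markers, Gstm5 was at 193 CPM and Gsto1 at 32.9 CPM, each the highest of its group, and the summed Ugt level of 1072 CPM per kb was the lowest. Gstp1 was lowest of its group in the library labelled SP placebo 1, at 58.3 CPM, and highest of its group in SP MAT2Ai 1, at 86.2 CPM. Ugt1a1 stood at 0.872 CPM in WT placebo 1, and Ugt2b37 at 499 CPM in SP MAT2Ai 4, each the highest of its group.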

How the results depend on the processing

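In SP MAT2Ai against WT MAT2Ai, where 1 member was called, DESeq2 called 4 and the likelihood ratio test 2 (1203 and 945 of all genes). The count was 0 with the compared groups only, without the libraries labelled SP placebo 1 and 2, and without WT MAT2Ai 2, 3 and 4, and it ranged from 0 to 2 when 1 library was left out. In SP against WT averaged over treatments, where 2 were called, the count was 6 by DESeq2, 5 by the likelihood ratio test and 7 by limma-voom, which called 885, 677 and 1341 of all genes against 215. It was 1 without the libraries labelled SP placebo 1 and 2, 5 without WT MAT2Ai 2, 3 and 4 (the 3 highest of their group for Gstm1), and 0 to 5 when 1 library was left out. For MAT2Ai against placebo averaged over genotypes, DESeq2 and the likelihood ratio test each called 1. In the other 4 comparisons no alternative called a member. The causes were not tested.

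Among the log2 fold changes of named members that were recomputed, which do not cover every comparison printed, none changed sign. DESeq2 size factors, the absence of a filter and the removal of mitochondrially encoded genes left the counts of members called as they were in all 7 comparisons. With the replicate number as a block, the count was 0 in SP MAT2Ai against WT MAT2Ai and 1 in SP against WT. The numbers did not pair the libraries, since the mean correlation of 30 same-numbered pairs was -0.0158, 4 pairs were over 0.1, and 6 of 20 libraries correlated best with their own number.

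Over all genes, edgeR called 3, 0, 0, 298, 36, 215 and 0 in SP MAT2Ai against SP placebo, WT MAT2Ai against WT placebo, SP placebo against WT placebo, SP MAT2Ai against WT MAT2Ai, MAT2Ai averaged, SP averaged and the interaction. Alternatives other than leaving out 1 library gave 0 to 27, 0 to 201, 0 to 7, 2 to 1203, 4 to 187, 114 to 1341 and 0 to 1, and leaving out 1 library gave 0 to 13, 0 to 27, 0 to 1, 0 to 774, 20 to 77, 20 to 574 and 0. The summed Gst level of WT MAT2Ai relative to WT placebo was 1.05, and 0.978 without WT MAT2Ai 2, 3 and 4. Stretches shared with other genes limit what the counts of Gsta1, Gstp2 and the Ugt1a genes can show.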
